A study of Mus musculus with 4 samples.

Results

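The genes whose symbols start with Kcn encode most potassium channel subunits of the mouse and some of their partners. They were taken by that prefix, and 94 of the 23185 named genes of the array table met it. Of these, 90 are protein-coding and 4 (Kcnq1ot1, Kcnd3os, Kcnmb4os1 and Kcnmb4os2) are noncoding RNA genes in the RefSeq annotation, so the prefix takes in more than channels.

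Potassium channels let potassium leave the cell and so pull the membrane potential away from the threshold of voltage-gated calcium channels. In airway smooth muscle their opening favours relaxation, and their closure favours depolarisation, calcium entry and contraction. Voltage-gated members (Kcna to Kcnd, Kcnh and Kcnq) respond to depolarisation, and the silent subunits Kcnf, Kcng, Kcns and Kcnv are grouped with them here. Calcium-activated members (Kcnm, Kcnn) respond to the calcium signal itself, inward rectifiers (Kcnj) and 2-pore channels (Kcnk) set the resting potential, and Kcnab, Kcne, Kcnip and Kcnmb proteins are accessory subunits.

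Airway smooth muscle cells came from adult Acta2-hrGFP;Cspg4-DsRED mouse lungs and were sorted as green and not red, that is, with activity of the smooth muscle actin promoter and without that of the Cspg4 promoter. All 4 groups carry both reporters. In the antagonist experiment, BMS mice received for 3 days a powdered vitamin A-sufficient diet with 5 mcg per gram of BMS, which blocks every retinoic acid receptor type, and CTR mice that diet with corn oil only. In the diet experiment, VAD mice ate a vitamin A-deficient diet (under 0.1 IU per gram) for 3 days, given as 5 days elsewhere in the protocol, and VAS mice a normal sufficient diet (15 IU per gram). RNA of 3 mice was pooled for each of the 4 arrays, so each group is 1 array without replicates, and every difference below compares arrays.

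Values are log2 RMA levels, and a difference of 1 on this scale is 2-fold. Each probe set has its own affinity, so a gene is placed within the array's range and its level is not set against that of another gene. The median of all named values was 6.05, and the upper quartile of named genes ran from 7.66 to 7.69 over the arrays. Acta2, the gene of the green reporter, stood at 11.95 in BMS, 11.98 in CTR, 12.12 in VAD and 11.96 in VAS. Cspg4, the gene of the excluded red reporter and a pericyte marker, stood at 7.98 in BMS, 8.08 in CTR, 8.22 in VAD and 7.71 in VAS, above the upper quartile on every array. In a sorted bulk sample, fewer cells of a type and less RNA per cell cannot be told apart.

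The sequences just upstream of 3 members are shown because the results turn on these genes. Kcnt2 and Kcnn3 had the largest differences between BMS and CTR among the members past the filter on low values, and Kcnmb1 lay highest in the array's range. Each is the 250 bases before the annotated start in RefSeq (GRCm38.p6, plus strand, 5′ to 3′), at chr1:140245468-140245717 for Kcnt2, chr3:89519914-89520163 for Kcnn3 and chr11:33962763-33963012 for Kcnmb1. Capitals mark CG dinucleotides.
Kcnt2: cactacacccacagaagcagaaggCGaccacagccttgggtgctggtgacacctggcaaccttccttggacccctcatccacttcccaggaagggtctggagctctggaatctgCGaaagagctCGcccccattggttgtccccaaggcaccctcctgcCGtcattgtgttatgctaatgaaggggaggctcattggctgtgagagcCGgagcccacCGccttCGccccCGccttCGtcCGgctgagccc
Kcnn3: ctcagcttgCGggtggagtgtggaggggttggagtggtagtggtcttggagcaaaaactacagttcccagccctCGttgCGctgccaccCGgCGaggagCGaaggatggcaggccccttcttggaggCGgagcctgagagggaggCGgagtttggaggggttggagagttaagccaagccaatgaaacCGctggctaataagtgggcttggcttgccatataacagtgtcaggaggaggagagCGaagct
Kcnmb1: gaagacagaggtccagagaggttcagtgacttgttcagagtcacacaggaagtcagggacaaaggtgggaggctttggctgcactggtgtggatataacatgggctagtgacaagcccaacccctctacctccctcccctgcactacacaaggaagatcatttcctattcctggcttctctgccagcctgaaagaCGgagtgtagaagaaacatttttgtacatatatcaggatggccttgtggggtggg

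The Kcnt2 and Kcnn3 windows each held 10 CG dinucleotides and the Kcnmb1 window 1. Of all 32851 such windows, 37.8% held at least 10 and 18.8% at most 1. The letters AGGTCA, a spelling of the half-site that nuclear receptors of the retinoid family bind, were searched on both strands. They were in none of these 3 windows. Other spellings of the half-site were not searched, here or in the counts that follow, so these windows may hold them. Among the 97 windows of the 72 Kcn genes in the table, 6 held AGGTCA, against 14% of all windows, and none held the direct repeat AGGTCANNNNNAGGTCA, which 0.00913% of all windows held. The CArG box of serum response factor was in no Kcn window and in 1.47% of all windows. These are matches of letters in a short window and say nothing of binding.

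Most Kcn genes lay low in the range of the array. The median of their 4-array means was 5.54, against 6.05 for all named genes, and 59 of the 94 lay below the median of all values on every array. For this last count the share of all named genes is not given here. With a filter that kept genes whose mean reached that median, 30 members (31.9%) remained, against 50% of all named genes. Of the 30, 25 were at or above the median on each array and 6 had a mean above the 75th percentile of all values. A further 5 (Kcnj10, Kcnip1, Kcnk15, Kcnmb4 and Kcnmb4os1) reached the median on at least 1 array but not in the mean. The plot of signal distributions shows this position of the family.

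**Figure D1:**
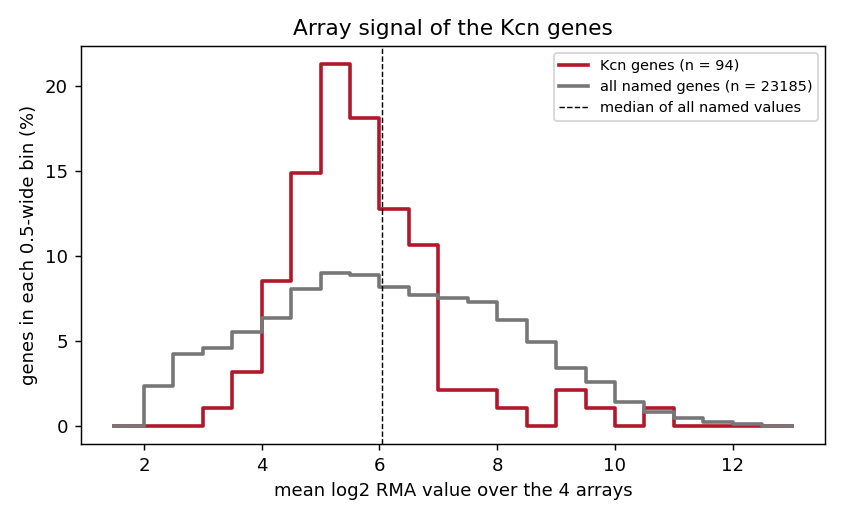
Distribution of the mean log2 RMA value over the 4 arrays, as the percentage of genes in bins 0.5 wide, for 94 Kcn genes (red) and 23185 named genes (grey). Both peak in the bin that starts at 5, below the dashed median of 6.05, with 21.3% of the Kcn genes and 9.01% of all genes in it, and the Kcn tail reaches a mean of 10.7.

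The 6 members above the upper quartile span 5 channel classes. Kcnmb1 (Entrez gene 16533), the smooth muscle beta subunit that raises the calcium sensitivity of the large-conductance BK channel, stood at 10.50 in BMS and 10.56 in CTR, and at 10.89 in VAD and 10.75 in VAS. Kcnma1 (16531), the pore subunit of the same channel, stood at 9.10 in BMS and 9.34 in CTR, and at 9.13 in VAD and 9.27 in VAS. The ranges of Kcnmb1 and Kcnma1 over the 4 arrays were 0.40 and 0.24, and the median range of all genes past the filter was 0.34. For Kcnma1, BMS and VAD lay below both controls, and for Kcnmb1 VAD was the highest array. Among all 30 members past the filter, 6 ranged over at least 1.5-fold (Kcnn3, Kcnd1, Kcnq1ot1, Kcnt2, Kcnj12 and Kcnab1), where 16.8% of all genes past the filter did.

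The other BK subunit genes lay below the filter. Kcnmb4, an accessory beta subunit known best from neurons, stood at 6.22 in BMS, 5.90 in CTR, 5.68 in VAD and 5.65 in VAS, and Kcnmb2 and Kcnmb3 had means of 5.86 and 4.57. Neither of the 2 BK genes past the filter was 1.5-fold apart in either experiment. Of all genes past the filter, 4.44% were so in BMS against CTR and 3.09% in VAD against VAS. The BK genes below the filter were not 1.5-fold apart either, and the share of all genes below it is not given here.

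Kcnk3 (16527), the acid-sensitive 2-pore channel TASK-1, was the steadiest of these 6, at 9.9985 in BMS, 10.06 in CTR, 9.8952 in VAD and 10.002 in VAS. Kcnh2 (16511), the ERG channel known for cardiac repolarisation, stood at 8.34 in BMS, 8.28 in CTR, 8.52 in VAD and 8.24 in VAS. Kcne4 (57814), an accessory subunit of voltage-gated channels, stood at 7.71 in BMS, 7.82 in CTR, 8.15 in VAD and 7.89 in VAS. For Kcnh2 and Kcne4 the VAD array was the highest, by 0.28 and 0.26 over VAS.

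Kcnj8 (16523), the pore of the ATP-sensitive channel of smooth muscle and pericytes, stood at 9.21 in BMS and 9.51 in CTR, and at 9.34 in VAD and 8.97 in VAS. BMS minus CTR was -0.30 and VAD minus VAS 0.37, while CTR minus VAS was 0.54, larger in size than either. Abcc9 (20928), the sulfonylurea receptor that assembles with this pore, stood at 9.75 in BMS, 10.003 in CTR, 10.07 in VAD and 9.85 in VAS, with differences of the same signs. Kcnj11 (16514), the alternative pore, stood at 6.47 in BMS, 6.70 in CTR, 6.64 in VAD and 6.68 in VAS, and Abcc8, its usual receptor partner in beta cells, lay below the filter with 5.37, 5.39, 5.34 and 5.34 on the same arrays.

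Kcnj8 and Abcc9 are also markers of pericytes. Of the other 9 genes of the pericyte and vascular smooth muscle list, 1 was higher in BMS than in CTR, 6 were higher in VAD than in VAS and 9 were higher in CTR than in VAS. The log2 of their summed level was 13.18 in BMS, 13.40 in CTR, 13.26 in VAD and 13.0 in VAS, and none lay below the median on every array. Beside the 6 that were higher in VAD, Higd1b, Ndufa4l2 and Cox4i2 were lower, with differences of -0.71, -0.52 and -0.24. The median of the 9 was 0.16 in VAD against VAS. The part of these cells in the Kcnj8 values was not tested.

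**Figure D2:**
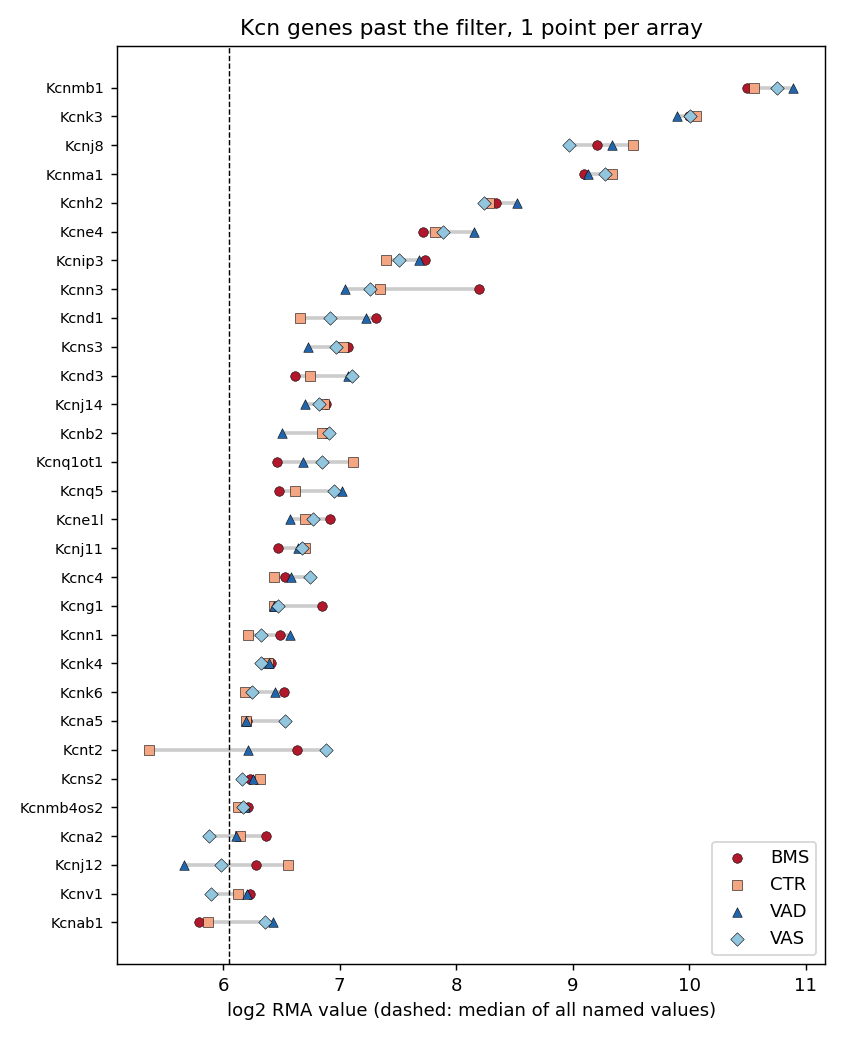
Log2 RMA value of each of the 30 Kcn genes past the filter on the BMS, CTR, VAD and VAS arrays (1 point per array, grey bar from the lowest to the highest). Kcnn3 is set apart by its BMS point at 8.20 and Kcnt2 by its CTR point at 5.36. The points of Kcnk3 and Kcnma1 lie closer together, with ranges of 0.16 and 0.24, and Kcnmb1 ranges over 0.40.

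BMS against CTR addresses receptor blockade. Over the 30 members that passed the filter the median difference was 0.03, with 18 above 0 and 12 below. Over all 11588 genes that passed, the median was 0.01, with 6010 above 0 and 5569 below. At least 1.5-fold higher in BMS were 3 members, Kcnt2, Kcnn3 and Kcnd1, where 2.85% of all genes past the filter stood so, and 1 member, Kcnq1ot1, was at least 1.5-fold lower, where 1.6% of all genes did. Kcnt2 alone was at least 2-fold higher (0.958% of all genes), and no member was at least 2-fold lower (0.242%).

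Kcnt2 (Entrez gene 240776) encodes a sodium-activated potassium channel, SLICK. It stood at 6.63 in BMS and 5.36 in CTR, and at 6.21 in VAD and 6.88 in VAS. CTR was the low array and the only one below the median of all values. BMS was 2.41-fold above CTR, but lay -0.25 from VAS, so the call holds against 1 of the 2 controls. Kcnt1, the other sodium-activated member, lay below the filter with 5.51 in BMS, 5.53 in CTR, 5.49 in VAD and 5.39 in VAS.

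Kcnn3 (140493) encodes SK3, a small-conductance channel opened by calcium through bound calmodulin. It stood at 8.20 in BMS and 7.35 in CTR, and at 7.04 in VAD and 7.26 in VAS. The BMS array stood above the other 3, and these lay within 0.31 of each other. BMS was 1.80-fold above CTR and 0.94 on the log2 scale above VAS, which made Kcnn3 the 1 member past the filter that was at least 1.5-fold above both controls. The share of all genes that were so above both is not given here, so this count has nothing to be set against. In BMS against VAS alone, Kcnn3 was the 1 of 30 members at least 1.5-fold higher, where 3% of all genes were, and no member was 1.5-fold lower (4.73%).

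Of the other small- and intermediate-conductance genes, Kcnn1 (84036), which encodes SK1, stood at 6.49 in BMS and 6.21 in CTR, and at 6.57 in VAD and 6.32 in VAS, higher in both experiments by 0.27 and 0.25. Kcnn2 stood at 5.49 in BMS, 5.90 in CTR, 5.30 in VAD and 5.33 in VAS, and Kcnn4, the intermediate-conductance channel of blood and epithelial cells, at 5.75, 5.80, 5.83 and 5.64 on the same arrays. Kcnn2 and Kcnn4 lay below the median on every array. BMS minus CTR was -0.40 for Kcnn2 and -0.05 for Kcnn4, and BMS minus VAS was 0.17 and 0.11, so their signs turned with the control.

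Kcnd1 (16506) encodes Kv4.1, a pore of fast-inactivating A-type current. It stood at 7.31 in BMS and 6.66 in CTR, and at 7.22 in VAD and 6.92 in VAS. BMS and VAD lay above both controls. BMS minus CTR was 0.65 and VAD minus VAS 0.31, while BMS minus VAS was 0.40, under 1.5-fold. Kcnd3, another Kv4 pore, stood at 6.62 in BMS, 6.74 in CTR, 7.07 in VAD and 7.11 in VAS, with differences of -0.12 and -0.03. Kcnip3, a calcium-binding KChIP partner of Kv4 channels, was higher in both experiments, at 7.73 in BMS and 7.40 in CTR, and at 7.68 in VAD and 7.50 in VAS.

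Kcnq1ot1 (63830) is an imprinted long noncoding RNA that silences neighbouring genes, among them its host locus, and is no channel. It stood at 6.46 in BMS and 7.11 in CTR, and at 6.68 in VAD and 6.84 in VAS. BMS and VAD lay below both controls. Kcnq1 itself, a slowly activating Kv7 pore, lay below the filter at 5.26 in BMS, 5.15 in CTR, 5.25 in VAD and 5.14 in VAS.

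**Figure D3:**
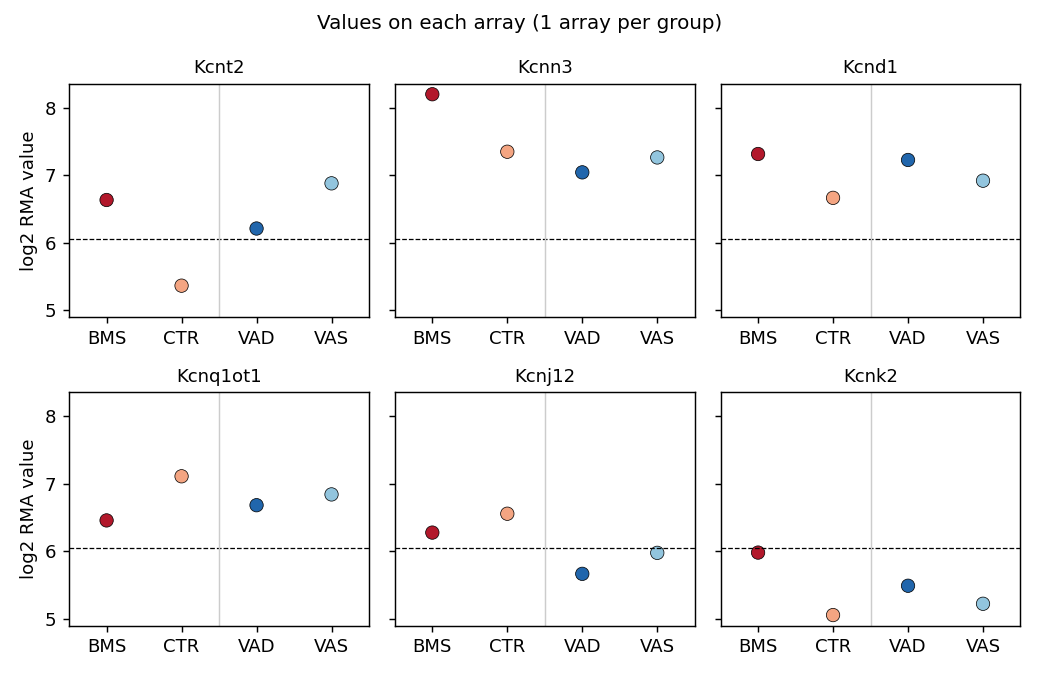
Log2 RMA values of 6 Kcn genes on the BMS, CTR, VAD and VAS arrays, 1 array per group, with the median of all named values (6.05) dashed and a grey line between the experiments. Kcnt2 is low in CTR at 5.36 and Kcnn3 is high in BMS at 8.20. Kcnd1 is higher and Kcnq1ot1 lower in BMS and VAD than in both controls, and Kcnk2 stays under the median on all arrays.

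Of the 64 members below the filter, Kcnk2 and Kcnc2 were also at least 1.5-fold higher in BMS. The share of all genes below the filter that stood so is not given here, so this count has nothing to be set against. Kcnk2 (16526), the stretch-activated 2-pore channel TREK-1, stood at 5.98 in BMS and 5.06 in CTR, and at 5.49 in VAD and 5.22 in VAS. It was also 0.76 above VAS on the log2 scale, so BMS was at least 1.5-fold above both controls. Its values lie wholly under the median of all values, where background signal is a larger share of the reading. Kcnc2, a Kv3 pore, stood at 4.26 in BMS, 3.65 in CTR, 3.79 in VAD and 4.16 in VAS.

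Markers of other cells moved beside the higher members in BMS. All 14 measured fibroblast markers were higher in BMS than in CTR, with a median difference of 0.46 and a log2 summed level of 14.85 in BMS against 14.44 in CTR. In the diet experiment 6 of the 14 were higher, with 14.57 in VAD and 14.64 in VAS. Of the 10 endothelial markers 7 were higher in BMS, with summed levels of 10.91 in BMS and 10.58 in CTR. Alveolar epithelial markers were higher in 7 of 10, with summed levels of 10.32 in BMS and 9.72 in CTR. Their median difference was 0.03, and Sftpc differed by 1.82. Of the 14 contractile genes 0 were higher in BMS, with 14.94 in BMS and 15.08 in CTR, and 11 were higher in VAD, with 15.31 in VAD and 15.19 in VAS. No fibroblast or contractile gene, 1 endothelial marker and 3 alveolar epithelial markers lay below the median on every array. The part of these cells in the Kcnt2, Kcnn3 and Kcnd1 values was not tested.

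VAD against VAS addresses the lack of dietary vitamin A. The 30 members split evenly, 15 above 0 and 15 below, with a median difference of -0.01. Over all 11588 genes past the filter the median was 0.01, with 6027 above 0 and 5549 below. No member was at least 1.5-fold higher, where 1.27% of all genes were, and Kcnt2 alone was 1.5-fold lower, with -0.67, where 1.82% were. None was 2-fold higher (0.19%) or 2-fold lower (0.354%). Of 10 alveolar epithelial markers 2 were higher in VAD than in VAS, with log2 summed levels of 10.43 in VAD and 11.51 in VAS, and 3 lay below the median on every array. The part of these cells in the VAD differences was not tested.

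After Kcnt2, the largest differences in VAD past the filter were those of Kcnb2, Kcnj8 (given above), Kcna5, Kcnj12 (given below) and Kcnv1. Kcnb2, a Kv2 pore, stood at 6.51 in VAD and 6.91 in VAS, and at 6.88 in BMS and 6.85 in CTR, so VAD was the low array. Kcna5, a Kv1 pore of vascular and cardiac muscle, stood at 6.20 in VAD and 6.53 in VAS, and at 6.21 in BMS and 6.19 in CTR, so VAS was the high one. Kcnv1, a silent subunit, stood at 6.21 in VAD and 5.90 in VAS, and at 6.23 in BMS and 6.13 in CTR. Kcnv1 was likewise set apart by VAS, as the low array.

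Kcnip1 (70357), another KChIP partner of Kv4 channels, was the 1 member below the filter that was 1.5-fold higher in VAD, at 6.55 in VAD and 5.94 in VAS, and 5.88 in BMS and 5.35 in CTR. It reached the median on the VAD array only. How many of all genes below the filter were 1.5-fold higher in VAD is not given here. Against CTR in place of VAS, 1 of the 30 members was at least 1.5-fold higher in VAD (3.82% of all genes), which was Kcnt2 with 0.85, and 1 was lower (1.73%), Kcnj12 with -0.89. The sign of Kcnt2 thus turned with the control.

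CTR and VAS belong to different experiments and differ in the form of the diet, the corn oil and the mice pooled, so these cannot be told apart, and each comparison above shares an array with this one. In CTR against VAS no member was 1.5-fold higher (2.55% of all genes) and Kcnt2 was 1.5-fold and 2-fold lower with -1.52 (5.34% and 1.48%), while none was 2-fold higher (0.285%). Markers of other cells moved beside Kcnt2 here. In CTR, 5 of 14 fibroblast markers were higher than in VAS (log2 summed level 14.44 in CTR and 14.64 in VAS), with a median difference of -0.23. Of the 13 past the filter, 4 were at least 1.5-fold lower and 1 was higher, where 5.34% and 2.55% of all genes were. None of 12 macrophage and monocyte markers was higher (10.82 in CTR and 11.36 in VAS), and 2 of 13 lymphocyte and granulocyte markers were (10.26 in CTR and 11.04 in VAS). Of the 10 alveolar epithelial markers 2 were higher (9.72 in CTR and 11.51 in VAS). Below the median on every array lay 4 of the macrophage and 6 of the lymphocyte and granulocyte markers, and the part of these cells in the Kcnt2 value was not tested.

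Kcnj12 (16515), a strong inward rectifier of muscle, was just under the 1.5-fold line with 0.58, at 6.28 in BMS and 6.56 in CTR, and at 5.67 in VAD and 5.98 in VAS. Both arrays of the antagonist experiment lay above both of the diet experiment.

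Other members separated the experiments rather than the conditions. Kcnab1, a beta subunit that speeds inactivation of Kv1 channels, stood at 5.79 in BMS and 5.87 in CTR, and at 6.43 in VAD and 6.36 in VAS. Kcnq5, a Kv7 pore found in smooth muscle, stood at 6.48 in BMS and 6.61 in CTR, and at 7.02 in VAD and 6.95 in VAS. Kcnd3 was split in the same way. For all 3 the arrays of the antagonist experiment were lower, and the differences within each experiment were at most 0.14 in size. Kcnip2, the cardiac KChIP, lay below the filter and was 1.05 lower on the log2 scale in CTR than in VAS, at 4.05 in BMS, 3.91 in CTR, 4.66 in VAD and 4.96 in VAS.

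**Figure D4:**
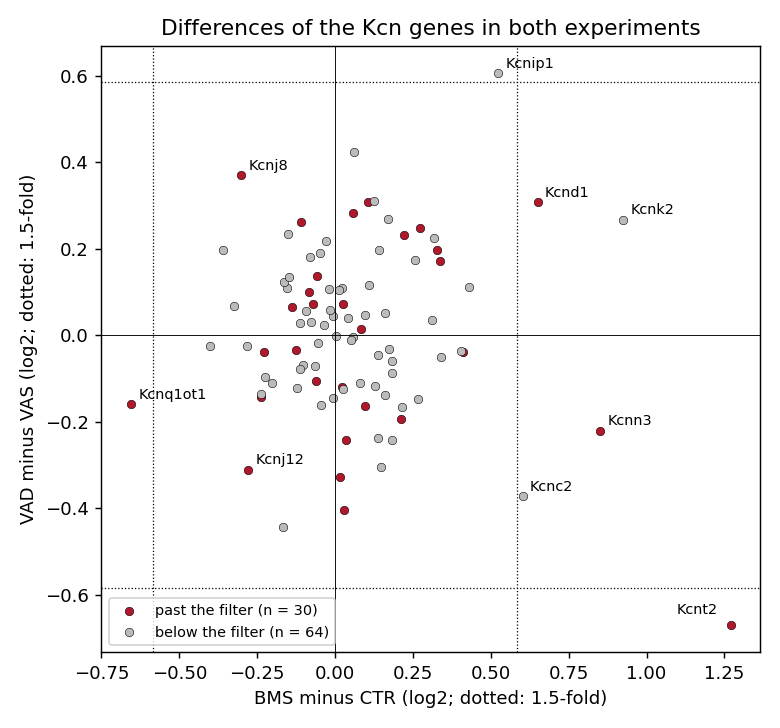
Difference of each of 94 Kcn genes between BMS and CTR (horizontal) and between VAD and VAS (vertical), in log2, for 30 members past the filter (red) and 64 below it (grey), with dotted lines at 1.5-fold. Kcnt2 lies past 1.5-fold in both experiments, at 1.27 and -0.67, and no Kcn gene lies past it in both with the same sign. Of all 11588 genes past the filter, 53 were past 1.5-fold in both with opposite signs and 32 with the same sign.

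The 2 experiments share no array. Of the 30 members, 9 were higher in BMS and in VAD than in their own controls and 6 were lower in both. That is 30% and 20%, where 26.4% and 22.4% of all genes past the filter were so. These shares are near those of all genes. Furthest upward in both, by the smaller of their differences, were Kcnd1, Kcnn1, Kcna2 and Kcnk6. Kcnk6 (52150), the 2-pore channel TWIK-2, stood at 6.52 in BMS and 6.19 in CTR, and at 6.44 in VAD and 6.25 in VAS. Kcna2 (16490), a delayed rectifier Kv1 pore, stood at 6.36 in BMS and 6.14 in CTR, and at 6.11 in VAD and 5.88 in VAS. For Kcnk6 BMS and VAD lay above both controls, while for Kcna2 VAD lay below CTR. Downward the 4 were Kcnj12, Kcnq1ot1, Kcnma1 and Kcnk3, and Kcnma1 differed by -0.24 in BMS and -0.14 in VAD.

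A joint fit with limma took VAD and BMS against VAS and CTR with the experiment as a block and adjusted p-values over 11588 genes by the Benjamini-Hochberg method. No Kcn gene and no other gene had an adjusted p under 0.05 (0% of all genes), with the smallest adjusted p at 1. At an unadjusted p under 0.05 there were 428 genes (3.69%), and 1 of the 30 members, Kcnd1, with a coefficient of 0.48 ± 0.15 (SE, 4 arrays), an unadjusted limma p of 0.0224 and an adjusted p of 1. Kcnq1ot1 followed with -0.41 ± 0.17 and an unadjusted limma p of 0.0580, then Kcnj12 with -0.30 ± 0.13 and 0.0699. Kcnn1 and Kcnk6 had coefficients of 0.26 each, with SE of 0.13. The fit has 1 residual degree of freedom, so it shows little about members that it did not call.

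By class, the voltage-gated members held 12 of 36 past the filter, where 50% of all named genes passed. Their medians were 0.05 in BMS against CTR and 0.02 in VAD against VAS. The inward rectifiers held 4 of 15 (Kcnj8, Kcnj14, Kcnj11 and Kcnj12), with medians of -0.25 and -0.08, and all 4 were higher in CTR than in VAS. Over all 15, however, only 5 were higher in CTR, with a median of -0.09. Of all 11588 genes past the filter, 5893 were higher in CTR. Of the 2-pore channels 3 of 14 passed (Kcnk3, Kcnk4 and Kcnk6), with medians of 0.03 and 0.07. The calcium-activated and related genes held 5 of 12, with medians of 0.27 and -0.14. Over all 12 of them the medians were -0.02 and 0.006. The accessory subunits other than Kcnmb held 4 of 13, with 0.07 and 0.12. Kcnj14, an inward rectifier of neurons, stood at 6.88 in BMS, 6.86 in CTR, 6.70 in VAD and 6.82 in VAS. No class had all its members past the filter on one side of 0 in either experiment.

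Within the single subfamilies, Kcnh had 1 of 8 members past the filter (Kcnh2), Kcna 2 of 8 (Kcna5 and Kcna2), Kcnq 1 of 3 (Kcnq5) and Kcns 2 of 3 (Kcns3 and Kcns2). The share of all named genes past it was 50%. Kcns3, a silent subunit that alters Kv2 currents, stood at 7.07 in BMS, 7.03 in CTR, 6.73 in VAD and 6.97 in VAS. Kcng1, a silent subunit of the same kind, stood at 6.85 in BMS and 6.44 in CTR, and at 6.43 in VAD and 6.47 in VAS, with BMS above the other 3. Kcnc4, a Kv3 pore, stood at 6.53 in BMS, 6.43 in CTR, 6.58 in VAD and 6.74 in VAS. The single members of Kcnf, Kcnrg and Kcnu (Kcnf1, Kcnrg and Kcnu1) lay below the median on every array.

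Of 35 channel genes long described in airway smooth muscle, 32 were measured, 15 passed the filter and 16 lay below the median on every array. The filter passed 50% of all named genes, so the share of the list is near that of all genes. For lying below the median on every array, the share of all genes is not given here. Among the 16 were Kcna1, Kcna3, Kcnq1, Kcnq3, Kcnk5 and Kcnj2, the classical strong inward rectifier, which stood at 4.04 in BMS, 4.21 in CTR, 3.80 in VAD and 4.24 in VAS. A value below the median of an array without detection calls does not show that a transcript was absent.

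Of 22 measured partner genes (sulfonylurea receptors, BK gamma subunits, Kv scaffolds, kinases, calmodulins and Hcn channels) 10 passed the filter. It passed 50% of all named genes. None of these 10 was 1.5-fold apart in either experiment. Of all genes past the filter, 4.44% were so in BMS against CTR and 3.09% in VAD against VAS. Below the filter, Lgi1, a secreted protein that acts on Kv1 channels of neurons, stood at 4.03 in BMS, 3.77 in CTR, 3.86 in VAD and 4.70 in VAS, with VAD minus VAS at -0.83. The median difference of these 10 was -0.13 in BMS against CTR and 0.07 in VAD against VAS. Prkg1, the cGMP-dependent kinase that activates BK channels, stood at 7.73 in BMS, 7.92 in CTR, 7.64 in VAD and 7.61 in VAS. Of 24 measured channels and pumps of opposing or coupled currents 18 passed, with 7 higher in BMS and 8 higher in VAD. Of all 11588 genes past the filter, 6010 were higher in BMS and 6027 in VAD. Atp1b1, a sodium pump subunit, was the 1 of the 18 past 1.5-fold in an experiment. It stood at 7.59 in BMS, 7.55 in CTR, 7.63 in VAD and 8.53 in VAS. VAS was its 1 high array, and VAD lay close to CTR. Cacna1c, the L-type calcium channel pore that potassium channels restrain, stood at 9.68 in BMS and 10.10 in CTR, and at 9.74 in VAD and 9.66 in VAS.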

How the data were processed

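RNA of sorted airway smooth muscle cells was measured on 4 Affymetrix arrays, 1 per group, with 3 mice pooled on each. The authors deposited RMA values in log2 units (affy 1.36.1, R 2.15.1), per the submitters' processing notes. RMA normalizes between arrays, which hides any change common to most genes, and detection above background is unknown. Groups come from the sample titles. Of all probe sets, 23185 had 1 gene symbol in GEO's platform annotation, each matching RefSeq by Entrez number, and 2021 are unnamed here.

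The filter asked for a 4-array mean at or above the median over every named value. Differences of log2 values were counted past 1.5-fold and 2-fold, with no test. The joint test was limma 3.58.1 (lmFit, eBayes) in R 4.3.3, tested on simulated data. Python 3.11.15, numpy 2.4.6, pandas 2.3.3 and matplotlib 3.10.9 were used. Members named are those 1.5-fold apart in a comparison, the 10 highest, the highest of each subfamily, the 5 with the smallest joint p, the 4 largest same-way differences each way, and a list of airway smooth muscle channels. Other genes, such as Kcnt1, Kcnip1, Kcnip2, Kcnj14, Kcnc2, Prkg1 and Cacna1c, were picked with their values in view. The members and lists were chosen with earlier results of these data known. The planned search of protein sequences was not done here, and RefSeq promoters were used. Alternatives were other filters, normalizations, controls and limma settings, and leaving out each array.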

Additional observations from a re-analysis of the deposited data

Results flagged for a closer look

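Kcnt2 moved in opposite directions in the 2 experiments, past 1.5-fold in both, with 1.27 for BMS minus CTR and -0.67 for VAD minus VAS on the log2 scale. It was the 1 of 30 members to do so, where 53 of all 11588 genes past the filter did. The 2 controls were themselves apart, with -1.52 for CTR minus VAS. Against the other control both signs turned, to -0.25 for BMS and 0.85 for VAD. The difference between the experiments was not tested, since each group is 1 array.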

How the results depend on the processing

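The values rest on 4 arrays. The joint fit pairs the arrays by experiment. Of 784 values recomputed, 127 moved and a further 3 reversed in sign. To move was to change by over 0.1 for a log2 difference or by over 1.5 times for a count. For a joint coefficient it was a change of sign, and for the highest subfamily a change of subfamily. Among differences of at least 1.5-fold, 3 changed sign, all of Kcnt2: against the other control it was 0.85 in VAD and -0.25 in BMS, and against the mean of both controls 0.089 in VAD. Smaller differences changed sign too, among them Kcnj8 against the other control, at 0.24 in BMS and -0.17 in VAD, and Kcnj12 and Kcnn2 in BMS, at 0.30 and 0.17. The joint fit called 0 members under every setting and without each array in turn (0 to 0), with 0 to 3 at an unadjusted p under 0.05. With so few residual degrees of freedom, and no block in the fits of 3 arrays, this says nothing about stability. Small counts moved with the filter. With the filter on the highest array, 2 members were 1.5-fold apart in VAD against VAS and 2 in CTR against VAS, and with no filter 2 and 3, with 2 past 2-fold in CTR against VAS. With the 75th percentile filter, which left 6 members, 0 were past 1.5-fold in any comparison or past 2-fold in BMS against CTR or CTR against VAS, and the medians were 0.20 in VAD and -0.085 in BMS. Quantile normalization again gave 2 members 1.5-fold apart in CTR against VAS. Against the other control, 2 members were 1.5-fold apart in VAD and 1 in BMS, and 0 were 2-fold apart in BMS. Against the mean of both controls, 1 was 1.5-fold and 0 were 2-fold apart in BMS. Of one sign in both experiments were 15 members, 44 with no filter and 3 with the 75th percentile filter. Leaving out the noncoding genes was chosen after seeing the data and changed the 1.5-fold count in BMS against CTR to 3.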
